A study of Clarias macrocephalus with 14 samples.

Results

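The 60 Gene IDs with the highest counts in whole fry of Clarias macrocephalus, the broadhead catfish, at 17 days post fertilization (dpf) are described here, out of 23837 Gene IDs made only of digits. They were chosen by their mean share of all counts in the 2 libraries of 17 dpf, so their 17 dpf shares are a description and were not tested. Whole fry were sampled at 7 ages (3, 5, 13, 14, 16, 17 and 24 dpf), with 2 libraries per age and 14 in all; day 17 below means 17 dpf, and so on. The libraries were made from total RNA after removal of ribosomal RNA. The series follows expression through early development in a study of air breathing. The labels give no strain, treatment or sex for any age, and do not say how many fry went into a library or whether the replicates came from separate spawns. The p-values therefore cover the spread between the libraries as given, which may be technical. Members are called by rank, rank 1 being the Gene ID with the highest share on day 17. The table pairs Gene IDs with no gene names, so no role is given to any member.

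An RNA-seq library counts a limited number of fragments, so the share of a gene is its part of the whole and not an amount per cell. When a few abundant RNAs take more of a library, the share of every other gene falls even where its amount has not changed. In whole fry a share also follows the proportions of the tissues, and more cells of a type cannot be told apart from more RNA per cell. The counts came from a transcriptome assembly, in which a single Gene ID can cover many assembled transcripts. Reads that match several transcripts are divided among them, so a level of near-identical copies is uncertain for each copy and is better read on their sum.

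Library totals ran from 1460853 to 8837320 counts. Replicates differed by more than counting noise at every age. The chi-square of the replicate counts, over Gene IDs with at least 50 counts, had a median of 1.22 to 2.11 times its counting expectation at 3 to 17 dpf and of 5.33 times on day 24. These medians rest on unlike sets, with 8333 to 16691 Gene IDs at 3 to 17 dpf and 4037 on day 24. The Wilson 95% interval of a member's share in a library had a median half-width of 2.19% of the share and at most 23.5%, and it covers counting error only.

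The 60 members held most of the counts at the last 2 ages and far less before. Their summed share was 34.1 and 36.6% in replicates 1 and 2 of 3 dpf, 22.4 and 22.0% on day 5, 23.1 and 24.1% on day 13, 39.5 and 40.0% on day 14, and 28.9 and 29.2% on day 16. It was 68.3 and 67.0% on day 17 and 69.7 and 64.1% on day 24. The 24 dpf libraries, which had no part in the choice of members, thus lay above every library of 3 to 16 dpf, as those of 17 dpf did. A comparison of 2 libraries with 2 cannot go below p = 0.33 in an exact permutation test, so no test of these sums is given.

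The gain from 16 to 17 dpf lay mostly in rank 1. The ranks were set by the 17 dpf shares, so the choice bears on where in the list this gain lies. Rank 1 had a mean share of 1.39% ± 0.0583 on day 16, 31.7% ± 1.53 on day 17 and 19.7% ± 1.88 on day 24 (SD, n = 2 each). Ranks 2 and 3 together had 8.73% ± 0.0903, 11.6% ± 0.866 and 16.8% ± 0.656 on the same days, and ranks 4 to 10 had 6.89% ± 0.0680, 11.3% ± 0.844 and 13.2% ± 3.95 (SD, n = 2 each). Ranks 11 to 60 had 12.1% ± 0.136, 13.2% ± 0.739 and 17.1% ± 1.28 (SD, n = 2 each). Their part of totals that include rank 1 thus moved little by day 17. With rank 1 removed from both the members and the totals, the other 59 held 52.7% ± 2.41 (SD, n = 2) on day 17 and 58.7% ± 5.96 (SD, n = 2) on day 24, against 28.1% ± 0.132 (SD, n = 2) on day 16. A share of 50% of all counts fell on the 7 highest all-digit Gene IDs in each 17 dpf library and on 8 and 12 in those of 24 dpf. At 16 dpf it took 505 and 485 such Gene IDs, and on day 5 564 and 535. It took 383 and 286 on day 3, 520 and 612 on day 13 and 264 and 238 on day 14. Most members were abundant at other ages too. Of the 60, 30 were among the 60 highest Gene IDs at every age, and the own 60 highest of an age held 35 (13 dpf) to 50 (24 dpf) of them at the ages not used for the choice. The own 60 highest of 16 dpf took 31.1% ± 0.201 (SD, n = 2) of its counts, against 68.1% ± 4.18 (SD, n = 2) for those of 24 dpf.

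**Figure D1:**
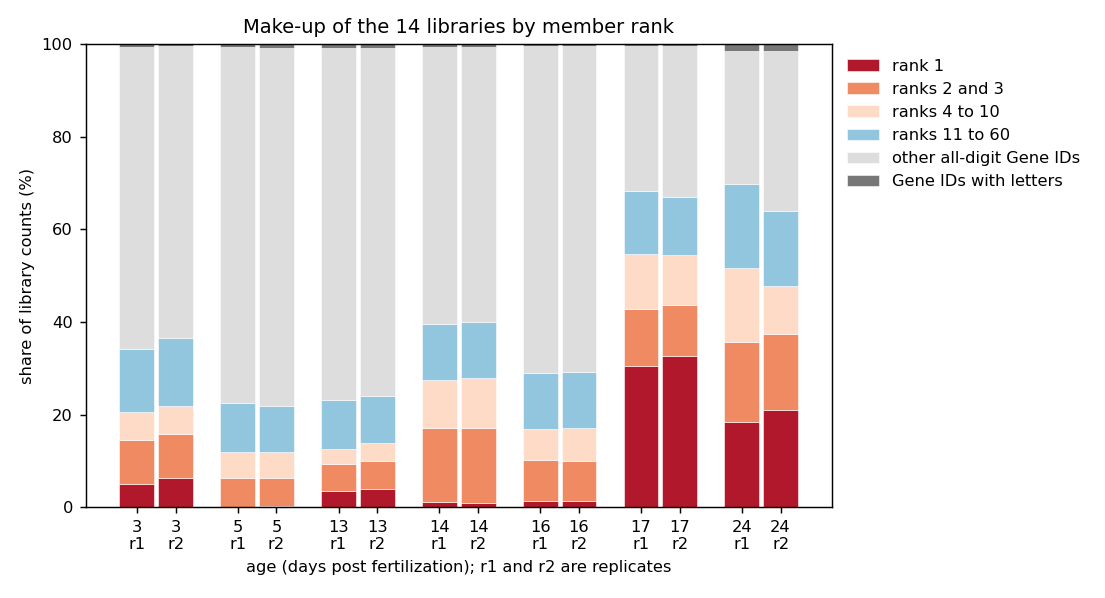
Share of each library's counts (percent, stacked to 100) taken by rank 1, ranks 2 and 3, ranks 4 to 10, ranks 11 to 60, the other all-digit Gene IDs and those with letters, for the 2 replicates of each age. The members fill 64.1 to 69.7% of the 17 and 24 dpf libraries and 22.0 to 40.0% of the others.

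Rank 1 (Gene ID 108271553) was the largest single part of the 17 and 24 dpf libraries. Its share was 5.08 and 6.35% on day 3, 0.146 and 0.245% on day 5, 3.57 and 3.86% on day 13, 1.09 and 0.900% on day 14, and 1.34 and 1.43% on day 16. It was 30.6 and 32.7% on day 17 and 18.4 and 21.1% on day 24. High and low ages alternated from 3 to 14 dpf, while days 14 and 16 were both low and days 17 and 24 both high. The means lay between 0.196% ± 0.0699 (SD, n = 2) on day 5 and 31.7% ± 1.53 (SD, n = 2) on day 17. The libraries of no 2 consecutive ages overlapped. It was the highest Gene ID of the table at 3, 13, 17 and 24 dpf, and 45th on day 5, 9th on day 14 and 5th on day 16. Practically a single transcript carried it, which held at least 97.6% of its counts at every age, although 11 transcripts bear this Gene ID.

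Ranks 2 and 3 moved as a pair and were spread over 343 and 297 transcripts. Rank 2 (Gene ID 108266288) had 4.69 and 4.73% on day 3, 3.14 and 3.07% on day 5, 3.03 and 3.29% on day 13, 8.28 and 8.37% on day 14 and 4.63 and 4.56% on day 16. It had 6.43 and 5.80% on day 17 and 8.97 and 8.68% on day 24. Rank 3 had 4.76 and 4.83% on day 3, 2.94 and 2.93% on day 5, 2.65 and 2.95% on day 13, 7.70 and 7.85% on day 14, 4.16 and 4.11% on day 16, 5.74 and 5.15% on day 17 and 8.31 and 7.68% on day 24. Both were high on days 14 and 24 and low on days 5 and 13, and their 17 dpf shares lay within the range of the other ages. The ratio of rank 3 to rank 2 stayed between 0.872 and 1.02 over the 14 libraries. Their transcripts fell into 218 and 187 Trinity read clusters, groups of transcripts that the assembler built from linked reads. The pair shared 41 clusters, which is 18.8% of those of rank 2 and 21.9% of those of rank 3. Among all members, 325 clusters, these 41 included, held transcripts of 2 or more members, so other members shared clusters too. How many clusters other pairs of members share was not determined.

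Ranks 4 to 8 and rank 10 each had the lowest mean share on day 13. Rank 4 had 1.18 and 1.20% on day 3, 1.24 and 1.24% on day 5, 0.558 and 0.593% on day 13, 1.70 and 1.75% on day 14, 1.24 and 1.27% on day 16, 2.50 and 2.18% on day 17 and 4.11 and 2.43% on day 24. Rank 5 had 1.28 and 1.24% on day 3, 1.16 and 1.14% on day 5, 0.622 and 0.635% on day 13, 2.38 and 2.42% on day 14, 1.42 and 1.42% on day 16, 2.43 and 2.21% on day 17 and 4.48 and 2.87% on day 24. Rank 6 had 0.913 and 0.902% on day 3, 0.550 and 0.565% on day 5, 0.337 and 0.383% on day 13, 1.16 and 1.16% on day 14, 0.691 and 0.702% on day 16, 1.80 and 1.60% on day 17 and 2.83 and 1.93% on day 24. These 3 had their highest mean on day 24, and in each of them replicate 1 of 24 dpf was at least 1.46 times replicate 2. Rank 7 had 0.908 and 0.951% on day 3, 1.25 and 1.22% on day 5, 0.443 and 0.484% on day 13, 1.95 and 1.98% on day 14, 1.53 and 1.57% on day 16, 1.65 and 1.43% on day 17 and 1.46 and 0.864% on day 24. Rank 8 had 0.627 and 0.627% on day 3, 0.971 and 0.974% on day 5, 0.302 and 0.305% on day 13, 1.82 and 1.86% on day 14, 1.12 and 1.15% on day 16, 1.24 and 1.11% on day 17 and 0.976 and 0.578% on day 24. Both peaked on day 14, and their 17 dpf libraries overlapped those of 16 dpf.

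Rank 10 had 0.284 and 0.276% on day 3, 0.239 and 0.258% on day 5, 0.125 and 0.115% on day 13, 0.718 and 0.739% on day 14, 0.441 and 0.451% on day 16, 1.09 and 1.01% on day 17 and 0.719 and 0.469% on day 24. Its 17 dpf libraries lay above all 12 others. Rank 9 followed another course, with 0.812 and 0.825% on day 3, 0.345 and 0.381% on day 5, 0.945 and 1.21% on day 13, 0.743 and 0.804% on day 14, 0.403 and 0.369% on day 16, 1.17 and 1.15% on day 17 and 1.46 and 1.30% on day 24. It was low on days 5 and 16.

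**Figure D2:**
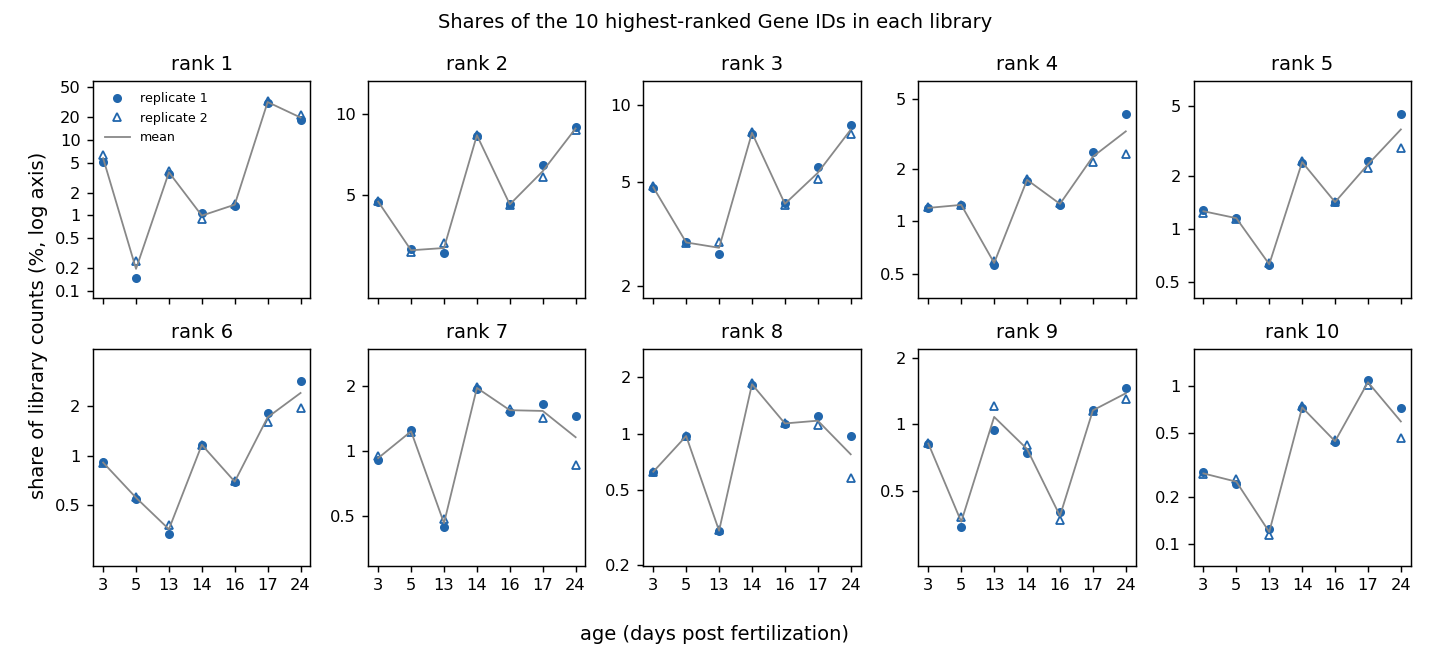
Share of library counts (percent, log axis) of ranks 1 to 10 against age, with replicate 1 as filled circles, replicate 2 as open triangles and the mean of the 2 as a line. Rank 1 runs from 0.146 to 32.7%, while the other 9 stay within 0.115 to 8.97%.

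Being dominant on day 17 did not mean having the highest share there. The mean share was highest on day 24 for 26 of the 60 members, on day 17 for 12, on day 14 for 10, on day 3 for 5, on day 13 for 3 and on days 5 and 16 for 2 each. The choice of members on 17 dpf bears on these counts, and the peak ages of all Gene IDs were not determined. In 11 members both 17 dpf libraries lay above all 12 others. The share of all Gene IDs that did so was not determined, so this count has no background. Mean shares were higher at 17 than on day 16 in 39 members, at least 2-fold in 19, and lower in 21; the choice of members on 17 dpf bears on these counts. The highest mean was 4.52 times the lowest in the median over members and at least 2.14 times in each. At the lower end of the list the margin was thin, with 0.107 and 0.106% for ranks 59 and 60 and 0.105 and 0.103% for the next 2 Gene IDs.

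In 6 members the mean share ranged at least 10-fold over the 7 ages: ranks 1, 20, 21, 23, 48 and 55. Rank 21 had 0.0185 and 0.0352% on day 3, 0.0853 and 0.102% on day 5, 0.0295 and 0.0844% on day 13, 0.0259 and 0.0213% on day 14, 0.0142 and 0.0108% on day 16, 0.372 and 0.391% on day 17 and 0.196 and 0.316% on day 24. The 4 libraries of the last ages exceeded all earlier ones. Rank 23 had 0.369 and 0.36% on day 17 and 0.141 and 0.231% on day 24, against at most 0.0299% in any younger library. Rank 55 had 0.273 and 0.335% on day 3, 0.00831 and 0.00524% on day 5, 0.0722 and 0.106% on day 13, 0.00901 and 0.00469% on day 14, 0.00761 and 0.00714% on day 16, 0.154 and 0.0857% on day 17 and 0.498 and 0.723% on day 24. Like rank 1 it was high at 3, 13, 17 and 24 dpf and low at 5, 14 and 16 dpf.

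Ranks 20 and 48 had a different low point. Rank 20 had 0.00560 and 0.0309% on day 13 and 0.0402 and 0.0465% on day 24, against 0.410 and 0.397% on day 17 and 0.0616 to 0.206% at the other ages. Rank 48 had 0.00193 and 0.00410% on day 13 and 0.134 and 0.153% a day later on day 14, close to its 0.141 and 0.140% on day 17. The replicates of 13 dpf differed widely for ranks 20 and 48, with ratios of replicate 1 to replicate 2 of 0.182 and 0.47.

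**Figure D3:**
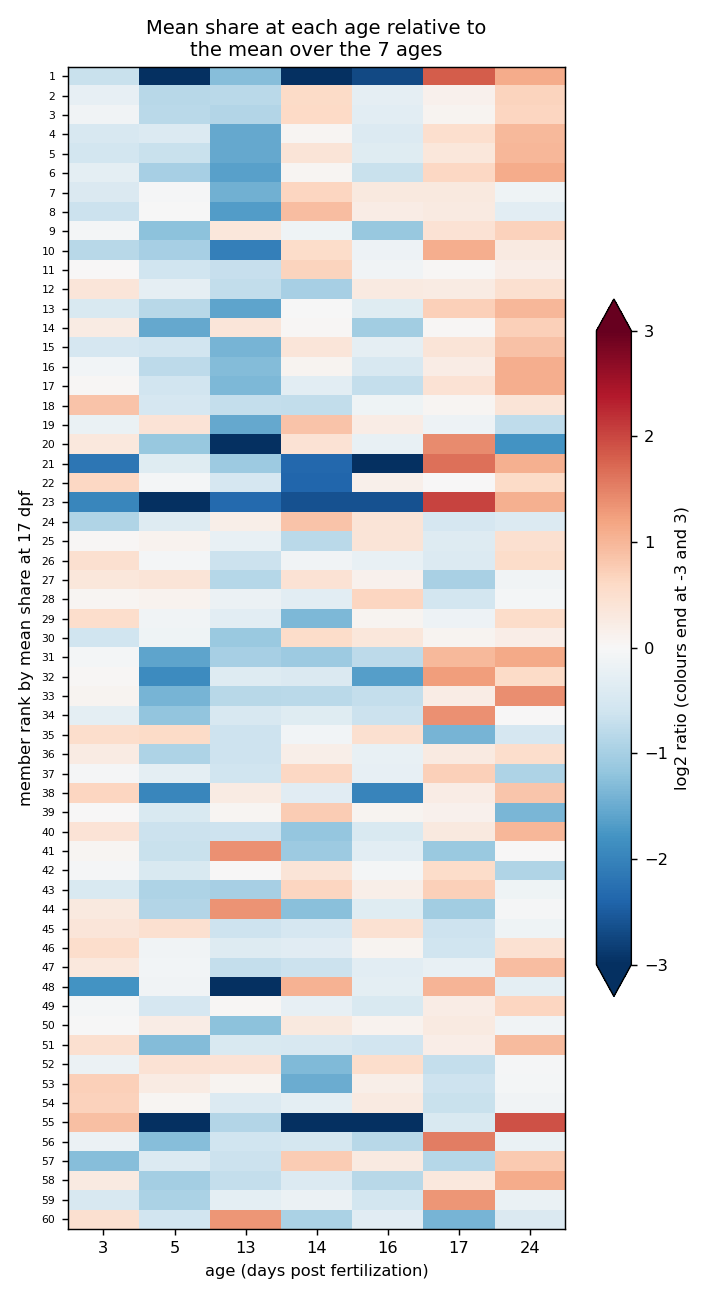
Mean share of each member (vertical axis, rank 1 at the top) at each age (horizontal axis, dpf), as the log2 ratio to its mean over the 7 ages; red is higher and blue lower. Ranks 1, 23 and 55 show the widest ranges between ages, and ranks 20 and 48 are lowest on day 13.

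The members fell into 3 kinds by the number of transcripts that carried 90% of their 17 dpf counts. In 22 members a single transcript sufficed, and it held 91.1 to 100% of the counts of the Gene ID. In 29 members it took 2 to 9 transcripts, and in 9 members 10 or more, up to 458 for rank 42. Together the 60 members had 7496 transcripts, which is 4.35% of all table lines, with a median of 14 per member against 4 over all all-digit Gene IDs. Of these transcripts, 2568 had no counts on day 17. The leading transcript was the same at all 7 ages in 41 members, including 21 of the 22 carried by a single transcript, and was shared with no other age in 3 members (ranks 37, 56 and 59). The exception among the 22 was rank 21. The kinds were set on day 17 and do not hold at every age. Of the 22, ranks 4, 16 and 29 needed 2 transcripts for 90% on day 24. On day 5 the leading transcript of ranks 21, 32 and 38 held only 22.2, 40.0 and 52.7%.

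Members carried by a single transcript held the most of the 3 kinds on day 17, with 44.0% ± 0.596 (SD, n = 2) of the counts. Rank 1 alone was 31.7%, and the other 21 held 12.4% ± 0.931 (SD, n = 2). With rank 1 included, the sum of this kind was 8.93% ± 0.169 (SD, n = 2) on day 16 and 35.1% ± 1.55 (SD, n = 2) on day 24. The 9 members spread over 10 or more transcripts summed to 13.3% ± 0.914 (SD, n = 2) on day 17, 9.92% ± 0.0972 (SD, n = 2) on day 16, and 18.0% ± 0.210 and 18.1% ± 0.638 (SD, n = 2 each) on days 14 and 24. The 29 members in between changed least in sum, from 8.23% ± 0.321 on day 5 to 13.8% ± 1.82 on day 24 (SD, n = 2 each).

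Of the members, 6 had 485 to 1669 transcripts each (ranks 34, 37, 39, 42, 56 and 59), where the largest all-digit Gene ID of the table has 1912. Their summed share was 0.913 and 0.930% on day 17, 0.459 and 0.451% on day 16 and 0.277 and 0.367% on day 24. The 17 dpf libraries, which chose the members, were the highest of the 14. The 6 did not move alike from 16 to 24 dpf: the mean share was higher on day 24 in 3 (ranks 34, 56 and 59) and lower in 3 (ranks 37, 39 and 42). With rank 2, the other member of at least 300 transcripts, the sum of these 7 went from 5.05% ± 0.0561 on day 16 to 9.15% ± 0.143 on day 24 (SD, n = 2 each). Rank 39, with 1669 transcripts, had 0.135 and 0.200% on day 17 and 0.0558 and 0.0645% on day 24.

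**Figure D4:**
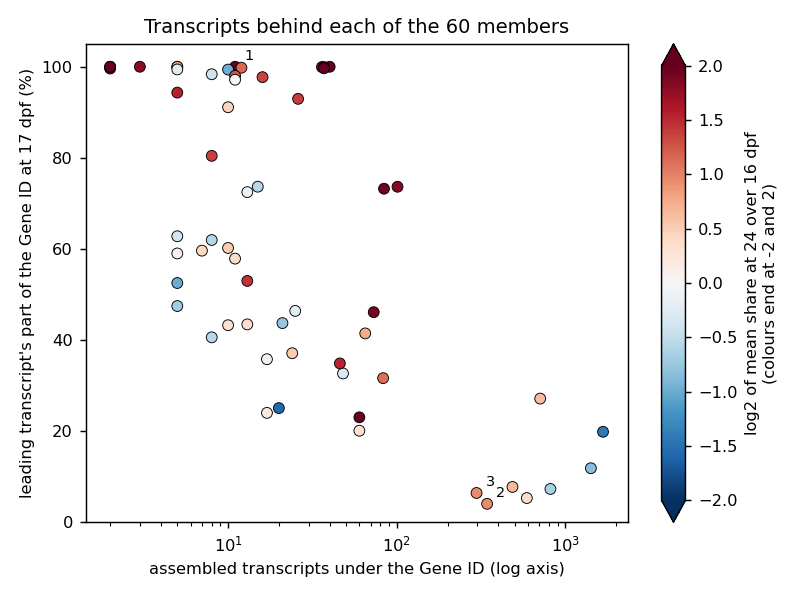
Part of each member's 17 dpf counts held by its leading transcript (percent, vertical axis) against the number of transcripts under its Gene ID (log axis), coloured by the log2 ratio of the mean share at 24 over 16 dpf. Rank 1 has 11 transcripts and a leading part of 100%, while ranks 2 and 3 have 343 and 297 transcripts with leading parts of 4.01 and 6.40%.

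Some members are grouped here by the form of their Gene ID. The groups were picked after their values were seen, and no test compares them with other members. Other members with Gene IDs near each other, such as ranks 7, 19 and 57, are not grouped. A group of 4 members (ranks 9, 14, 32 and 38) have Gene IDs of 6 digits, all within 9 of each other, and the other 56 have 9 digits. The 4 summed to 1.86 and 1.92% on day 3, 0.617 and 0.670% on day 5, 1.98 and 2.30% on day 13, 1.51 and 1.71% on day 14, 0.792 and 0.725% on day 16, 2.20 and 2.18% on day 17 and 3.00 and 2.65% on day 24. They were lowest on days 5 and 16 and highest on day 24. Another 5 members (ranks 25, 28, 46, 53 and 54) have 9-digit Gene IDs that start with 100. These summed to 1.72% ± 0.00763 (SD, n = 2) on day 16, 0.910% ± 0.0520 (SD, n = 2) on day 17 and 1.51% ± 0.119 (SD, n = 2) on day 24. All 5 had a lower mean share at 17 than on day 16, and they are among the 21 of the 60 members that did. The all-digit Gene IDs outside the members fell in sum from 70.6% ± 0.157 on day 16 to 31.9% ± 0.896 on day 17 (SD, n = 2 each). How many of all Gene IDs had a lower share on day 17 was not determined.

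The members' changes among the ages that did not choose them were tested on all Gene IDs together, with edgeR's quasi-likelihood test and Benjamini-Hochberg adjustment over 18992 Gene IDs. All 60 members passed the low-count filter. The 6 ages shared a single estimate of spread per Gene ID. The p-values of day 24, where replicates differed most, therefore rest in part on ages with closer replicates. Each of them differed among the 6 ages at an adjusted p under 0.05, where 87.4% of all Gene IDs tested did, so this count is close to the background; with library totals it was 60 against 95.8%. Most Gene IDs tested have lower counts than the members, and the share called at like abundance was not determined for any comparison. The comparisons of 24 with 16 dpf and of each earlier step are given with TMM scaling, which aligns the bulk of Gene IDs, and with library totals, the scale of the shares. The TMM factors were 0.358 and 0.462 on day 24 and 1.12 to 1.30 at the other 5 ages, so the 2 scales differ most on day 24.

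From 16 to 24 dpf the members moved up against the other Gene IDs. With TMM scaling 58 of the 60 rose and none fell, where 19.7% of all Gene IDs tested rose and 22.8% fell, 42.5% in all (edgeR, adjusted p under 0.05). None was lower at an unadjusted p under 0.05 either, and DESeq2 called 58 higher and 0 lower. On that scale the rise was at least 2-fold in 52 members and at least 4-fold in 33. The 2 that did not pass were rank 20 (log2 fold change 0.02, SE 0.39, edgeR adjusted p = 0.986) and rank 39 (0.15, SE 0.13, adjusted p = 0.382). Rank 19 passed (0.66, edgeR adjusted p = 0.0156) but no longer did without replicate 1 or 2 of 16 dpf (edgeR adjusted p = 0.0825 and 0.0678) or replicate 1 of 24 dpf (0.11, adjusted p = 0.435). With library totals 35 members rose, 13 fell and 12 did not pass, where 3.06% of all Gene IDs tested rose and 77.9% fell, 81% in all. The direction thus depended on the scale for 11 members, called higher with TMM and lower with totals, among them ranks 7 and 8. The median log2 fold change was 2.09 in members and -0.22 over all Gene IDs with TMM, and 0.48 and -1.81 with totals, a gap of 2.32 and 2.29; the 2 gaps are nearly equal by construction, because a change of scale shifts all Gene IDs of a library alike. No overlap between the shares of the 2 ages was seen in 37 members that were higher and 16 that were lower on day 24, against 4.18 and 85.3% of all Gene IDs tested.

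The 3 members with the largest TMM-scaled rise from 16 to 24 dpf were ranks 55, 21 and 1. Rank 55 rose by a log2 fold change of 7.94 (SE 0.33, edgeR adjusted p = 4.66e-12), and by 6.37 (SE 0.31) with totals. Its CPM on TMM-scaled totals was 61.8 and 58.7 on day 16 and 13891 and 15671 on day 24. Rank 21 rose by 5.91 (SE 0.41, edgeR adjusted p = 2.44e-09), and by 4.35 (SE 0.39) with totals. Rank 1 rose by 5.42 (SE 0.28, edgeR adjusted p = 6.36e-11), and by 3.83 (SE 0.19) with totals. Leaving out each of the 12 libraries in turn kept the log2 change of rank 55 between 7.83 and 8.01, that of rank 21 between 5.72 and 6.11 and that of rank 1 between 5.31 and 5.48.

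Ranks 2 and 3 rose by log2 fold changes of 2.55 (SE 0.19) and 2.56 (SE 0.19) with TMM, with edgeR adjusted p = 5.6e-09 and 7.4e-09, and by 0.94 and 0.95 with totals. Ranks 7 and 8 were called higher with TMM (1.23, SE 0.24, and 1.10, SE 0.24) and lower with totals (-0.42, SE 0.16, and -0.55, SE 0.16), and both had the lower share in replicate 2 of 24 dpf. Their TMM values rested on the 24 dpf replicates, at 0.55 and 0.42 without replicate 1 and 1.66 and 1.53 without replicate 2. Each of these fits leaves a single library on day 24, and the spread then comes from the other ages. The 4 members with 6-digit Gene IDs rose on both scales, by 3.39 to 4.42 with TMM and 1.77 to 2.81 with totals. By transcript make-up on 17 dpf, the 22 members carried by a single transcript all rose with TMM, and with totals 17 rose and 2 fell. Of the 29 with 2 to 9 transcripts, 28 rose with TMM, and with totals 13 rose and 8 fell. Of the 9 with 10 or more, 8 rose with TMM, and with totals 5 rose and 3 fell. Of all Gene IDs tested, 19.7% rose with TMM, and with totals 3.06% rose and 77.9% fell.

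**Figure D5:**
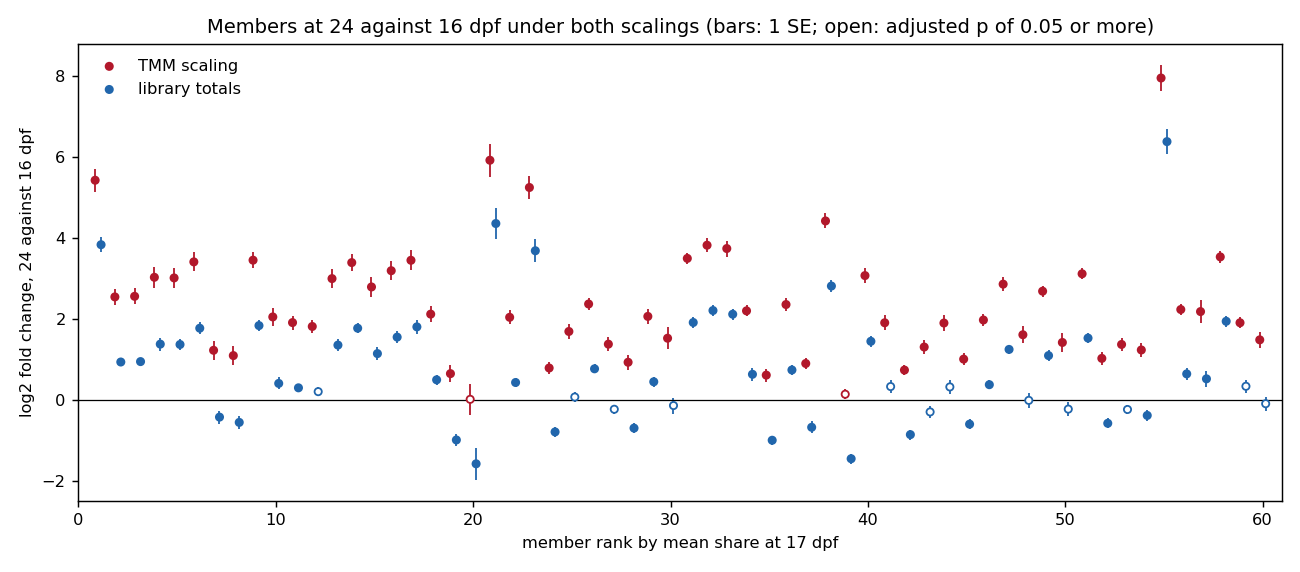
Log2 fold change of each member from 16 to 24 dpf against its rank, with TMM scaling in red and library totals in blue; bars are 1 SE and open symbols have an adjusted p of 0.05 or more. The TMM values of called members run from 0.62 to 7.94, and the values with totals lie lower for every member, with 13 called below 0.

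Over the whole span from 3 to 24 dpf the picture was similar. With TMM 58 members rose and none fell, where 17% of all Gene IDs tested rose and 15.9% fell, 33% in all (edgeR, adjusted p under 0.05). DESeq2 also called 58 higher and 0 lower, and 0 were lower at an unadjusted p under 0.05. With library totals 31 rose and 12 fell, where 1.93% rose and 71.6% fell, 73.5% in all. The 2 comparisons share the 24 dpf libraries and are not separate evidence. For rank 1 the log2 fold change from 3 to 24 dpf was 3.30 with TMM (edgeR adjusted p = 2.08e-08), less than its change from 16 dpf.

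From 3 to 5 dpf the members mostly fell. With TMM 39 fell and 6 rose, where 21.2% of all Gene IDs tested fell and 25.9% rose, 47.1% in all (edgeR, adjusted p under 0.05). With totals 40 fell and 8 rose, against 18 and 26.7% of all Gene IDs, and these include the 39 and the 6. The median log2 fold change was -0.66 in members and 0.05 over all Gene IDs. Rank 55 fell by 5.55 and rank 1 fell by 4.92 on the log2 scale (edgeR adjusted p = 2.47e-10 and 4.08e-10). The 6 that rose were ranks 19, 21, 24, 48, 52 and 57, led by rank 21 with 1.74. The leading transcript of rank 21 held 98.3% of its counts on day 3 and 22.2% on day 5.

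From 5 to 13 dpf the members were divided. With TMM 20 rose and 26 fell, where 25.9% of all Gene IDs tested rose and 29.7% fell, 55.6% in all (edgeR, adjusted p under 0.05). With totals 21 rose and 25 fell, against 27.1 and 26.9%, and 20 and 24 of these calls were made on both scales. Rank 1 rose by 4.17 and rank 55 by 3.65, while rank 48 fell by 4.51 on the log2 scale (edgeR adjusted p = 8.2e-10, 7.39e-09 and 2.62e-10). The 4 members with 6-digit Gene IDs all rose, by 1.44 to 2.16.

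From 13 to 14 dpf, a single day, more members rose than fell. With TMM 29 rose and 11 fell, where 24% of all Gene IDs tested rose and 24.9% fell, 48.9% in all (edgeR, adjusted p under 0.05). With totals 28 rose and 16 fell, against 18.5 and 29.9%, and 28 and 11 were called on both scales. Rank 48 rose most, by 5.77 (edgeR adjusted p = 2.67e-11), and ranks 2 to 8 and 10 rose by 1.56 to 2.77. The 11 that fell were ranks 1, 21, 22, 29, 38, 41, 44, 52, 53, 55 and 60, of which rank 55 fell by 3.54 and rank 1 fell by 1.74 on the log2 scale.

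From 14 to 16 dpf the balance turned. With TMM 27 members fell and 13 rose, where 17% of all Gene IDs tested fell and 18.6% rose, 35.6% in all (edgeR, adjusted p under 0.05). With totals 25 fell and 18 rose, against 11.2 and 22.7%, and 24 and 13 were called on both scales. Rank 2 fell by 0.98 and rank 3 fell by 1.03 on the log2 scale (edgeR adjusted p = 0.000409 and 0.000322), and rank 22 rose most, by 2.39 (adjusted p = 2.06e-08). Rank 1 had a log2 change of 0.36 and did not pass with TMM (edgeR adjusted p = 0.234), and with totals it passed, with a rise of 0.48 (edgeR adjusted p = 0.0357). The count of 40 members called fell to 24 without replicate 2 of 14 dpf, and to 23 and 21 without replicate 1 or 2 of 16 dpf.

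The replicates of 24 dpf split the members. In 14 members (ranks 4 to 8, 10, 13, 15, 16, 17, 19, 30, 50 and 57) the share in replicate 1 of 24 dpf was 1.46 to 1.99 times that in replicate 2, and in the other 46 the ratio was 0.611 to 1.28. The 14 summed to 19.9% in replicate 1 and 12.5% in replicate 2 of 24 dpf, against 14.1 and 12.5% on day 17, 8.81 and 9.04% on day 16 and 3.45 and 3.58% on day 13. In 13 of the 14 the lowest mean share was on day 13, against 8 of the other 46. The share of all Gene IDs that were lowest on day 13 was not determined, so this count has no background. All 14 rose from 13 to 14 dpf with TMM, as did 15 of the other 46, where 24% of all Gene IDs tested rose (edgeR, adjusted p under 0.05). The 14 were set apart at a ratio of at least 1.4, and the share of all Gene IDs past that ratio was not determined either. A lowest mean on day 13 bears on a rise from 13 to 14 dpf, so the counts of these 2 traits are not separate evidence. Totals were lowest in the pair of 24 dpf, and the part of depth in this split was not tested.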

How the data were processed

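The authors deposited expected counts, with 2.24 to 5.56% of values per library not whole, for 172513 transcripts with Trinity identifiers, per the file headers. RSEM, DESeq2, Trimmomatic 0.36, CASAVA 1.9.1 and FastQC are the tools in the submitters' processing notes, which state no order. The assembler's version, Gene ID assignment, strand use and build were not given in the sources used here.

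Counts were summed per Gene ID and divided by each library's total, from 1460853 to 8837320 counts. For testing, sums over all 25238 Gene IDs were rounded and fitted in edgeR 4.0.16 (R 4.3.3; TMM factors, filterByExpr with a minimum count of 10, quasi-likelihood F test, age as the only term). The 12 libraries of the 6 ages other than 17 dpf entered the fit, and 18992 Gene IDs passed the filter. P-values were Benjamini-Hochberg adjusted within each comparison. Standard errors are the absolute log2 fold change divided by the square root of F. The fit was tested on simulated counts. DESeq2 1.42.0, other scalings and filters, left-out libraries and a replicate block served as alternatives.

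Members are called by rank. Values in every library are given for ranks 1 to 10. They are also given for the 3 members with the largest rise from 16 to 24 dpf. These were taken among members called with TMM scaling and without overlap. The 3 with the largest fall were planned in the same way. No member was called lower on that scale, so none are given, and 13 were called lower with library totals. Gene IDs are printed for the 2 highest-ranked members that rose. The members and tests were chosen with earlier results of these data known. Gene lists that need gene names were not used. Same-numbered replicates were not paired, as sensitivity values below show.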

Additional observations from a re-analysis of the deposited data

Results flagged for a closer look

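A Gene ID made of letters and digits, a kind left out by the choice of members, had a share of 0.158% ± 0.00613 (SD, n = 2) on day 17 and drew attention as a signal outside the all-digit Gene IDs. It would have stood at position 42 among the members, and no other such Gene ID reached the share of rank 60. It has 2 transcripts. Its share was 0.0967 and 0.0949% in the replicates of 3 dpf, 0.0129 to 0.0190% in the 4 libraries of 14 and 16 dpf, and 0.490 and 1.16% on day 24, where the replicates differed widely.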

How the results depend on the processing

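Of 484 alternative values of counts and summed shares, 445 stayed within 1.5 times (counts) or 1 SD (shares) and 39 did not. With library totals 15375 Gene IDs were called from 16 to 24 dpf (582 higher, 14793 lower) and 13959 from 3 to 24 dpf, since the TMM factors of 24 dpf are not applied; log2 changes of ranks 7 and 8 turned to -0.42 and -0.55. Upper-quartile scaling, TMM without the members, DESeq2, both other filters, the fit of all 14 libraries and the fit of all-digit Gene IDs alone kept 58 members higher and none lower from 16 to 24 dpf.

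In the order 3, 5, 13, 14, 16, 17 and 24 dpf, the summed share was 21.2, 11.9, 12.5, 21.2, 15.9, 53.5 and 45.9% for the 60 highest single transcripts (which covered 34 of the 60 members), 29.5, 18.3, 18.2, 35.8, 24.6, 63.2 and 60.6% for 30 members and 39.8, 25.9, 27.6, 43.2, 33.5, 71.2 and 71.4% for 120. With letter-and-digit Gene IDs allowed it was 28.9% on day 16. With rank 1 removed from totals and members, an alternative chosen after seeing the data, it was 31.5% at 3, 20.6% at 13, 39.1% at 14, 28.1% at 16, 52.7% at 17 and 58.7% on day 24. The cause was not tested except where fewer or more members are summed.

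Leaving out the libraries one at a time gave 57 to 58 members called from 16 to 24 dpf (5786 to 8368 Gene IDs), 56 to 59 from 3 to 24 (4253 to 6519), 37 to 52 from 3 to 5 (6610 to 9703), 38 to 53 from 5 to 13 (8774 to 11097), 37 to 48 from 13 to 14 (7205 to 9743), 21 to 51 from 14 to 16 (3789 to 7936) and 60 among the 6 ages (15900 to 17248). All Gene IDs called from 14 to 16 dpf fell from 6756 to 4007 or 4093 without replicate 1 or 2 of 14 dpf and to 4416 or 3789 without replicate 1 or 2 of 16 dpf. A fit without a library leaves its age with a single library, so these counts take the spread of that age from the others. Choosing members from a single 17 dpf library shared 59 to 60 of the 60.

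Same-numbered replicates did not deviate together (r of -0.031 to 0.0244 over 15 pairs of ages). With the replicate block 58 members were called from 16 to 24 dpf and 38 from 14 to 16 dpf.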

Other observations

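The 4 members with 6-digit Gene IDs belong to a run of 11 Gene IDs of the table that span 12 in number. The 7 that are no members stood between positions 167 and 22767 on day 17, and their course over age differed in part from that of the 4. Their summed share was 0.0881% ± 0.00962 on day 3, 0.192% ± 0.0210 on day 5, where the 4 members were lowest, and 0.0961% ± 0.00379 on day 13 (SD, n = 2 each). It was 0.0183% ± 0.00162 on day 14, 0.0151% ± 0.000922 on day 16, 0.0286% ± 0.000852 on day 17 and 0.119% ± 0.0128 on day 24 (SD, n = 2 each). Like the 4, the 7 were low on day 16 and higher on day 24. These values were looked up after the members' own were seen.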
